A study of Mus musculus with 44 samples.

Results

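The mouse counterparts of 10 genes at human Alzheimer risk loci other than APOE (Bin1, Picalm, Cd2ap, Abca7, Clu, Cd33, Inpp5d, Plcg2, Abi3 and Ptk2b) were followed across cultured primary microglia and astrocytes of 4 Apoe genotypes. They were chosen by symbol, with names from GENCODE mouse M21, and all 10 were found among 54146 gene identifiers in the count table. Bulk RNA-seq libraries were made from untreated cells grown in media meant for human microglia and astrocytes, with a kit that does not mark strand. In each cell type there were 4 libraries from Apoe KO mice (1 female, 3 male), 6 from APOE44 (3 female, 3 male), 6 from APOE33 (4 female, 2 male) and 6 from Apoe WT (3 female, 3 male). KO, APOE44 and APOE33 libraries carry the batch label 1 and WT libraries the batch label 2, so WT genotype and batch cannot be told apart. What the batch label stands for is not given, and RNA extraction is described as 1 batch. The labels give neither the animals' age or strain nor how the human APOE alleles are driven, and they do not say whether replicates came from separate mice or cultures, so p-values measure the spread between these libraries. The first APOE33 astrocyte library has a genotype tag of WT, but its title, its source name and its batch are those of APOE33, and it was kept there.

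Many loci of inherited risk for late-onset Alzheimer disease outside APOE lie near genes of a few kinds. Some act in membrane uptake and sorting, some in lipid transport and the handling of secreted lipoproteins, and many in the receptor signalling of microglia, the resident macrophages of the brain. In that signalling, activating receptors such as TREM2 recruit the kinase SYK and then phospholipase C gamma 2, while inhibitory receptors such as human CD33 and lipid phosphatases such as SHIP1 dampen the response.

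Libraries held 83.2 to 143.2 M read counts each. The Apoe gene of the mouse, counted as a check of the genotype labels, averaged 15.7 CPM (counts scaled to 1 M per library) in KO microglia, 54.1 in APOE44, 55.1 in APOE33 and 51370 in WT microglia, and 11.4, 24.8, 24.1 and 5813 CPM in astrocytes of the same 4 genotypes. Defining markers followed the cell type labels: in microglia, all 12 astrocyte markers were lower and each of 15 markers of microglia and macrophages was higher. The microglia marker sum was 21550 to 37320 CPM in microglia libraries and 151 to 586 CPM in astrocyte libraries. The astrocyte marker sum was 36.1 to 147 CPM in microglia and 11680 to 17370 CPM in astrocytes.

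Levels of different genes were compared as CPM per kilobase of exon, over the 22 libraries of a cell type. In microglia the highest level was that of Inpp5d at 103 ± 12.1 (SD, n = 22), followed by Bin1 at 88.6 ± 19.5, Plcg2 at 69.8 ± 6.16, Ptk2b at 53.4 ± 3.64, Picalm at 48.4 ± 2.80, Cd33 at 35.2 ± 9.86 and Abca7 at 14.9 ± 2.94. Cd2ap at 7.196 ± 0.398, Abi3 at 6.095 ± 2.40 and Clu at 4.09 ± 3.94 CPM per kilobase were the lowest, and their ranges overlapped. In astrocytes Clu stood far above the rest at 908 ± 117 CPM per kilobase (n = 22). Picalm at 7.30 ± 0.352, Bin1 at 6.62 ± 0.572, Ptk2b at 4.91 ± 1.79, Cd2ap at 3.23 ± 0.222, Abca7 at 2.23 ± 0.635, Plcg2 at 1.68 ± 0.338, Inpp5d at 1.13 ± 0.563 and Cd33 at 0.444 ± 0.242 followed. Abi3 was lowest at 0.0973 ± 0.0315 CPM per kilobase. Its place in both orders is uncertain, since all 4153 of its exon bases were used and only 1006 lie outside exons of other genes. The place of Ptk2b differed between genotypes: in KO astrocytes it averaged 8.01 ± 1.65 CPM per kilobase (n = 4), above Bin1 at 7.07 ± 0.200 and Picalm at 6.87 ± 0.451, whereas it averaged 4.03 to 4.58 CPM per kilobase in the other 3 genotypes, below both. Neighbours in these 2 orders overlapped over the libraries, except that Abca7 in microglia stayed above Cd2ap (lowest library 11.45, against 7.90 CPM per kilobase in the highest library of Cd2ap) and Clu in astrocytes above Picalm (764 against 7.82 CPM per kilobase).

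**Figure D1:**
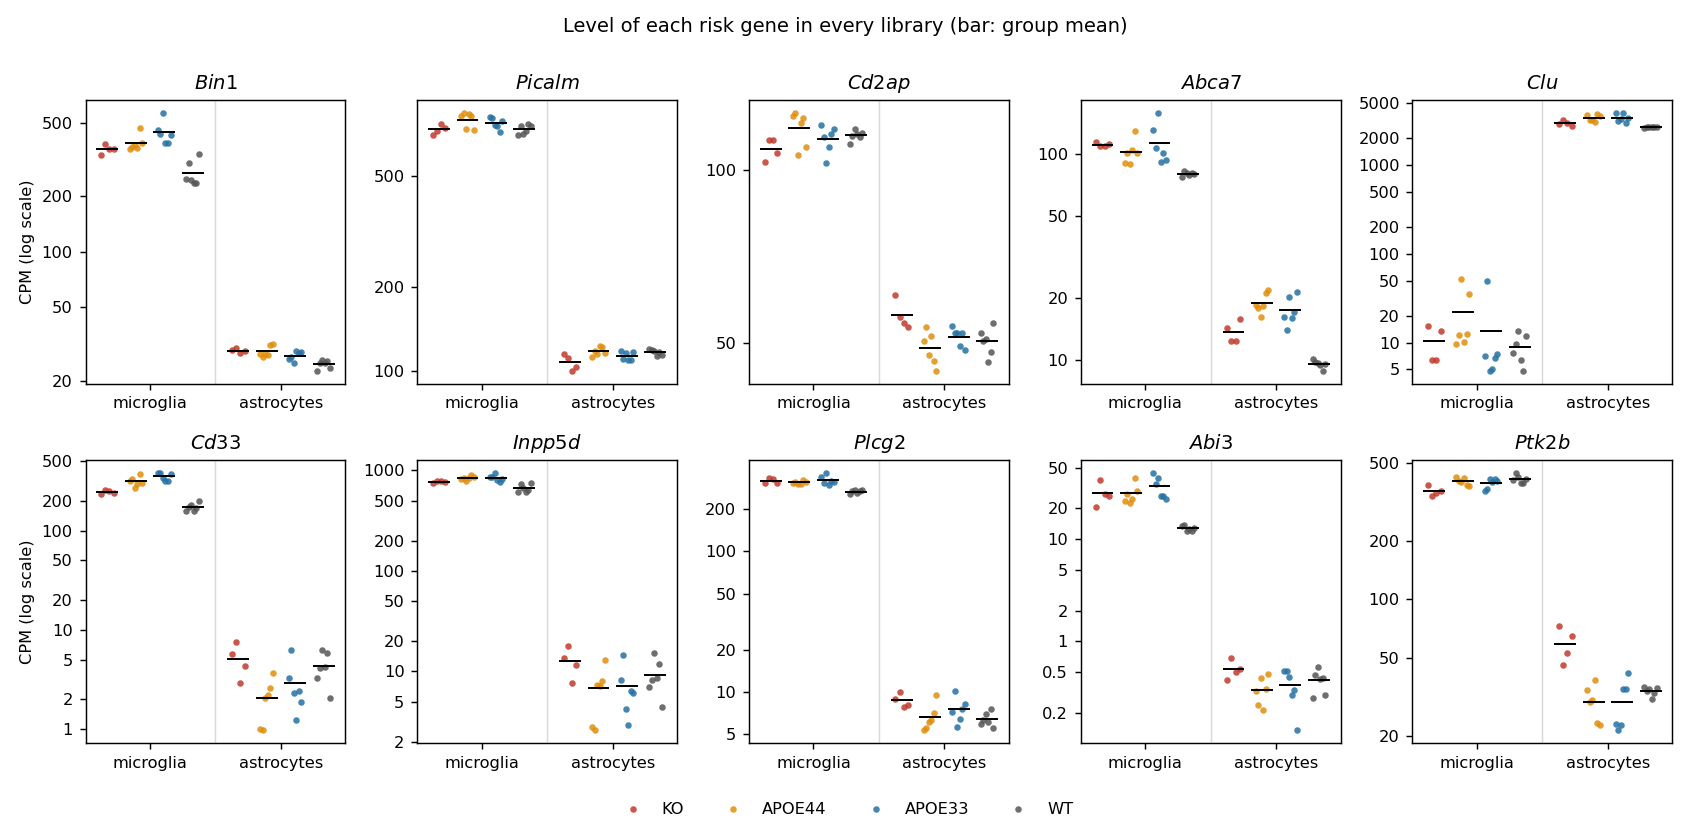
Each panel plots 1 gene's CPM (log scale) in every library, microglia at left and astrocytes at right, with KO, APOE44, APOE33 and WT from left to right in each and a bar at the group mean. Clu alone sits higher in astrocytes, and Ptk2b stands out in the 4 KO astrocyte libraries at 45.9 to 73.2 CPM. All genes but Cd2ap and Ptk2b have their lowest microglial mean in WT, though for Picalm it hardly differs from KO (734.4 against 734.5 CPM).

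The endocytic genes were Bin1, which encodes a membrane-curving BAR-domain protein (ENSMUSG00000024381.15, GRCm38 chromosome 18, 32377230 to 32435737, plus strand), and Picalm, a clathrin assembly protein (ENSMUSG00000039361.11, chromosome 7, 90130213 to 90213465, plus strand). Cd2ap, an adaptor that links membrane proteins to the actin cytoskeleton, lies on chromosome 17 at 42792951 to 42876665 (ENSMUSG00000061665.6, minus strand). In microglia as against astrocytes of batch 1, edgeR gave log2 fold changes of 3.797 ± 0.05 (SE) for Bin1 (adjusted p = 6.69e-32), 2.76 ± 0.03 for Picalm (adjusted p = 3.98e-33) and 1.13 ± 0.03 for Cd2ap (adjusted p = 3.84e-24). Cd2ap thus had the smallest difference of the 10 genes, with astrocyte means at 41.4% to 51.3% of the microglial mean of the same genotype.

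The lipid genes were Abca7, a lipid-exporting ABC transporter (ENSMUSG00000035722.15, chromosome 10, 79996494 to 80015572, plus strand), and Clu, the secreted chaperone and apolipoprotein clusterin (ENSMUSG00000022037.15, chromosome 14, 65968483 to 65981547, plus strand). Abca7 was higher in microglia by 2.72 ± 0.08 on the log2 scale (adjusted p = 1.53e-22). Clu was the 1 gene lower in microglia, with a log2 fold change of -7.80 ± 0.42 (adjusted p = 7.39e-16). Its mean in microglia was 0.337% to 0.646% of its astrocyte mean in the 4 genotypes, beside an astrocyte marker sum at 0.392% to 0.852%. In 3 microglia libraries Clu stood apart, at 51.9 and 35.6 CPM in APOE44 replicates 3 and 6 and 49.8 CPM in APOE33 replicate 2, and the other 19 held 4.81 to 15.5 CPM. The astrocyte marker sum in those 3 libraries was 132, 127 and 138 CPM, and it was 147 CPM in KO replicate 1, where Clu was 15.5 CPM. Whether astrocyte RNA took part in these Clu values was not tested.

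The genes of microglial signalling were Cd33, a sialic-acid-binding receptor (ENSMUSG00000004609.11, chromosome 7, 43524216 to 43544428, minus strand), and Inpp5d, which encodes the lipid phosphatase SHIP1 (ENSMUSG00000026288.14, chromosome 1, 87620312 to 87720507, plus strand). Plcg2 encodes phospholipase C gamma 2 (ENSMUSG00000034330.10, chromosome 8, 117498291 to 117635142, plus strand). Abi3, whose protein joins complexes of the WAVE actin regulator (ENSMUSG00000018381.15, chromosome 11, 95830074 to 95842476, minus strand), and Ptk2b, which encodes the calcium-responsive tyrosine kinase PYK2 (ENSMUSG00000059456.13, chromosome 14, 66153257 to 66281052, minus strand), complete the list. These 5 were higher in microglia of batch 1 by 6.59 ± 0.23 (Cd33, adjusted p = 3.01e-20), 6.59 ± 0.26 (Inpp5d, adjusted p = 2.91e-19), 5.36 ± 0.08 (Plcg2, adjusted p = 2.74e-29), 6.18 ± 0.18 (Abi3, adjusted p = 1.34e-22) and 3.36 ± 0.10 (Ptk2b, adjusted p = 3.43e-22) on the log2 scale. Abi3 values are uncertain, since 75.8% of its exon bases also lie in exons of Zfp652, Phospho1 and Gngt2 on the opposite strand and the kit does not mark strand. Ptk2b lies 171.7 kb from Clu, while Cd33 and Picalm lie 23.83 and 70.43 Mb from Apoe on its chromosome.

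All 10 genes thus passed the test between cell types, 9 higher and 1 lower in microglia, where 90.9% of 21647 genes passed, 40.3% higher and 50.6% lower. The same 9 were higher and Clu lower in the 12 WT libraries of batch 2, where 89.5% of genes passed, 41.6% higher and 47.9% lower. The median log2 fold change of the 10 genes was 3.58 in batch 1 and 3.46 in WT, beside -0.247 and -0.132 for all genes tested. In bulk libraries fewer cells of a type and less RNA per cell cannot be told apart.

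**Figure D2:**
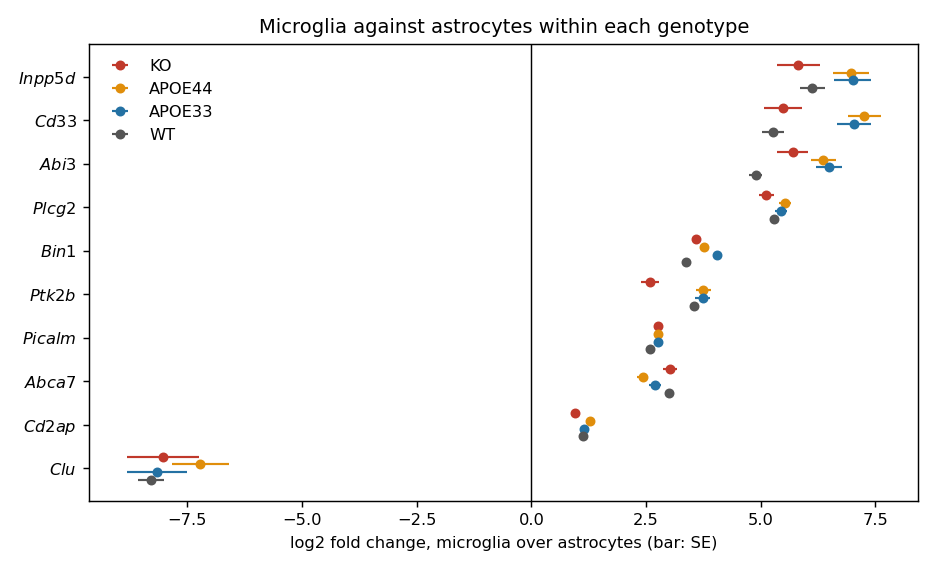
Log2 fold change of microglia over astrocytes (x axis, bar: SE) for each gene within KO, APOE44, APOE33 and WT, with genes ordered by the batch 1 value. Clu lies between -8.28 and -7.21 in the 4 genotypes, the other 9 genes lie above 0, and Ptk2b is closer to 0 in KO than in the other genotypes.

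Promoter letters are shown for 3 of these microglial genes, Inpp5d, Cd33 and Plcg2. All 3 were higher than in WT microglia in the comparisons that follow, by unlike amounts, and so were Bin1, Abca7 and Abi3. RefSeq windows of GRCm38.p6, from 250 bases before to 50 after the start, were at hand for 6 of the 10 genes (Picalm, Abca7, Cd33, Inpp5d, Plcg2 and Cd2ap). Capitals mark GAGGAA on either strand, letters found in sites of ETS factors such as PU.1, the macrophage regulator encoded by Spi1. The windows are chr1:87620062-87620361 for Inpp5d (plus strand), chr7:43533122-43533421 for Cd33 (minus strand) and chr8:117498025-117498324 for Plcg2 (plus strand).
Inpp5d: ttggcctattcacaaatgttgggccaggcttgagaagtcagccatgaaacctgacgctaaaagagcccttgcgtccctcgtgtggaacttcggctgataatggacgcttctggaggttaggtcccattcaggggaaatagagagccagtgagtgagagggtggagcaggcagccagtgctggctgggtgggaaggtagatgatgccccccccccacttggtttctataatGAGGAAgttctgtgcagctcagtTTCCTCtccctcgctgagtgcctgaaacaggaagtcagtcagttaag
Cd33: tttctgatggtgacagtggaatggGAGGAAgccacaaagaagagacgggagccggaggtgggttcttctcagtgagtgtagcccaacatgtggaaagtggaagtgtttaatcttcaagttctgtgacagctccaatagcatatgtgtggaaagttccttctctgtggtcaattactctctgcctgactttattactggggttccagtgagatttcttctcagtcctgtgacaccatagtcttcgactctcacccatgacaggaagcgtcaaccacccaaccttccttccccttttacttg
Plcg2: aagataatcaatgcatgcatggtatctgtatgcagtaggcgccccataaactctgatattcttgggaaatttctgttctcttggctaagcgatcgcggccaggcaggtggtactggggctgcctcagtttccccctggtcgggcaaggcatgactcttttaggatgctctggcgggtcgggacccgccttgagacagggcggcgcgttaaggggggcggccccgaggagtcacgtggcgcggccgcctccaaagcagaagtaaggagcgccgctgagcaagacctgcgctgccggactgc
GAGGAA occurred 2 times in the Inpp5d window, 1 time in that of Cd33, 2 times in that of Picalm and not in those of Plcg2, Abca7 or Cd2ap, while 28.3% of 32851 mouse promoter windows hold it. The longer GAGGAAGT occurred in the Inpp5d window, 20 bases before the start (offset -20), and in 3.2% of all windows. Inpp5d and Plcg2 windows start near the annotated GENCODE gene starts, while that of Cd33 lies inside the longer GENCODE gene. Matches describe these letters and are not binding sites.

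In astrocyte libraries of each genotype Inpp5d and Cd33 followed the microglia markers from library to library, and Ptk2b did not. Inpp5d was 2.95% ± 0.238 (SD, n = 4) of the microglia marker sum in KO astrocytes, 2.17% ± 0.345 in APOE44, 2.14% ± 0.292 in APOE33 and 2.54% ± 0.145 in WT (n = 6 each), beside group means of 2.45% to 2.84% in microglia. Cd33 was 1.18% ± 0.144 of that sum in KO astrocytes, 0.683% ± 0.0562 in APOE44, 0.879% ± 0.213 in APOE33 and 1.19% ± 0.0718 in WT. In microglia it was 0.783% in KO, 0.962% in APOE44, 1.04% in APOE33 and 0.737% in WT on average. Astrocytes thus lay above microglia in KO and WT and below them in APOE44 and APOE33, with overlap of libraries only in APOE33. Ptk2b was 10.8% to 14.9% of it in astrocytes and 1.14% to 1.76% in microglia.

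At the share of microglia markers in astrocytes (1.35% of the microglial level in KO, 0.913% in APOE44, 0.944% in APOE33 and 1.53% in WT), the microglial level of Ptk2b comes to 4.82, 3.67, 3.72 and 6.31 CPM. The astrocyte libraries averaged 59.3, 30.0, 29.8 and 33.8 CPM, so most Ptk2b counts in astrocytes lie above that share. For Inpp5d the same reckoning gives 10.4 CPM in KO, 7.71 in APOE44, 8.01 in APOE33 and 10.2 in WT beside means of 12.6, 6.84, 7.11 and 9.19 CPM. Inpp5d means in these astrocyte libraries thus lay near that reckoning. For Cd33 the reckoning gives 3.31 CPM in KO, 2.88 in APOE44, 3.32 in APOE33 and 2.64 in WT. Its means there were 5.11, 2.07, 2.89 and 4.29 CPM. Single markers varied around the share, from 0.451% to 2.71% of their microglial level in KO and 0.221% to 1.68% in APOE44. They ran from 0.239% to 1.74% in APOE33 and 0.226% to 4.64% in WT. Whether microglial RNA took part in these values was not tested.

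**Figure D3:**
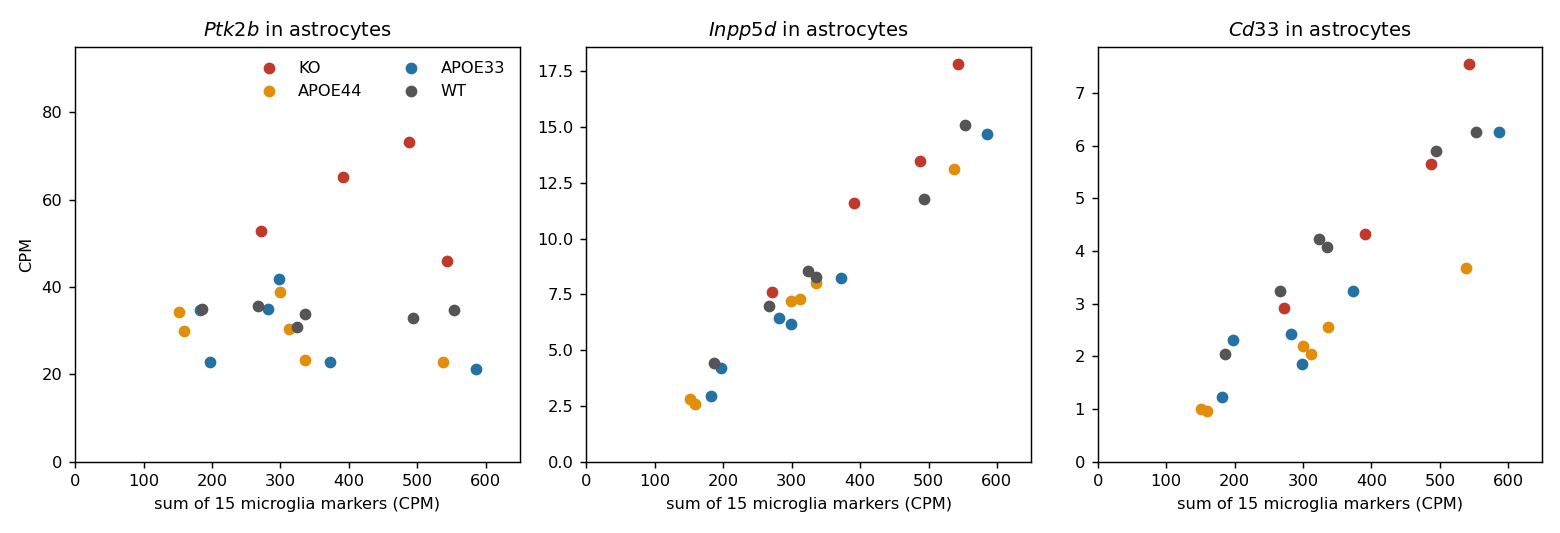
CPM of Ptk2b, Inpp5d and Cd33 (y axes) in each astrocyte library against the sum of 15 microglia markers in the same library (x axes, CPM), coloured by genotype. Inpp5d and Cd33 climb with the marker sum in all genotypes, whereas the 4 KO libraries lie above all others in Ptk2b at marker sums of 272 to 543 CPM.

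The comparison of KO with APOE33 asks what differs in cells that lack Apoe. In microglia 4 of the 10 genes passed edgeR's quasi-likelihood test (Benjamini-Hochberg adjusted p under 0.05 over all 17143 genes), all 4 lower in KO, where 22.7% of all genes passed. They were Cd33, Bin1, Inpp5d and Ptk2b. The median log2 fold change was -0.143 over the 10 genes and -0.0199 over all genes.

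Cd33 was at 236, 255, 251 and 240 CPM in the 4 KO microglia libraries, and at 316 to 383 CPM in APOE33 (median 356, n = 6). All 4 KO libraries lay below every APOE33 library. The log2 fold change was -0.56 ± 0.09 (SE, adjusted p = 0.000309), which is 0.680-fold. It passed without any 1 library and under every other setting tried. Among 28 other tested genes within 1 Mb of Cd33, 8 (28.6%) passed in this comparison and 1 of them was higher. Over all genes 22.7% passed.

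Bin1 was at 335, 381, 361 and 360 CPM in KO microglia and at 386 to 562 CPM in APOE33 (median 432, n = 6). The 2 groups did not overlap, although the highest KO library lay only just below the lowest of APOE33. The log2 fold change was -0.39 ± 0.09 (adjusted p = 0.00517), and it passed without any 1 library.

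Inpp5d was at 750, 785, 782 and 765 CPM in KO microglia and at 777 to 950 CPM in APOE33 (median 843), and 2 of the 4 KO libraries lay below all of APOE33. Ptk2b was at 385, 338, 349 and 360 CPM in KO and at 361 to 416 CPM in APOE33 (median 401), with 3 of the 4 KO libraries below all of APOE33. Both changes were small, at -0.18 ± 0.06 for Inpp5d (adjusted p = 0.0420) and -0.16 ± 0.05 for Ptk2b (adjusted p = 0.0438). Each passed in only 3 of 10 fits that left out 1 library, with adjusted p up to 0.128 for Inpp5d and 0.143 for Ptk2b. Without a filter on low counts neither passed (adjusted p = 0.0840 for Inpp5d and 0.104 for Ptk2b), and Inpp5d did not pass without sex as a covariate (adjusted p = 0.0514).

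Of 15 microglia markers 1 was higher and 4 were lower in KO, with a median log2 fold change of -0.113, and their sum was 30360 to 32920 CPM in KO and 32270 to 37320 CPM in APOE33. As a percentage of that sum Cd33 was 0.717% to 0.841% in KO and 0.911% to 1.15% in APOE33, without overlap. The other 3 genes overlapped on that scale, Bin1 at 1.02% to 1.26% in KO and 1.16% to 1.51% in APOE33, Inpp5d at 2.28% to 2.59% in KO and 2.39% to 2.58% in APOE33, and Ptk2b at 1.11% to 1.17% in KO and 1.05% to 1.28% in APOE33. Of 13 oligodendrocyte lineage markers tested, 6 were lower in KO. Border macrophage markers differed more, with 5 of 5 tested genes higher in KO (median log2 fold change 1.44), and their sum was 1747 to 1929 CPM in KO and 1090 to 1537 CPM in APOE33. The part of other cells or states in the values of these 4 genes was not tested. Picalm, Cd2ap, Abca7, Clu, Plcg2 and Abi3 did not pass, with log2 fold changes from -0.31 (Abi3) to -0.06 (Plcg2). That of Clu, at -0.13 with all libraries, was 0.74 without APOE33 replicate 2, the library with high Clu, and passed in neither case.

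In astrocytes 2 of the 10 genes passed between KO and APOE33, Ptk2b higher and Abca7 lower in KO, where 17.2% of 20481 genes passed. Ptk2b was at 73.2, 45.9, 52.9 and 65.1 CPM in KO astrocytes and at 21.3 to 41.8 CPM in APOE33 (median 28.9, n = 6). APOE33 replicates 1 to 3 lay at 21.3 to 22.9 CPM and replicates 4 to 6 at 34.8 to 41.8 CPM. Every KO library lay above every APOE33 library. The log2 fold change was 0.98 ± 0.23 (adjusted p = 0.0118), a 1.98-fold higher level in KO, and the adjusted p was 0.0919 without KO replicate 1.

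Ptk2b was thus higher in KO than in APOE33 astrocytes. Its lower level in KO microglia was small, and that call was lost in most fits that left out 1 library. The test of the difference between cell types gave -1.15 ± 0.24 on the log2 scale (microglia minus astrocytes, adjusted p = 0.00176). It passed in each of 20 fits that left out 1 library. This test asks whether the 2 changes differ, not whether the microglial change holds alone. Among 24 other tested genes within 1 Mb of Ptk2b, 6 (25%) passed between KO and APOE33 astrocytes and 1 of them was higher. Over all genes 17.2% passed there. The neighbouring gene Clu was at 2730 to 3173 CPM in KO astrocytes and at 2972 to 3826 CPM in APOE33, and its log2 fold change of -0.26 ± 0.09 did not pass (adjusted p = 0.0553), although it did by DESeq2 (adjusted p = 0.0169).

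Abca7 was at 14.3, 12.4, 12.4 and 15.8 CPM in KO astrocytes and at 13.95 to 21.3 CPM in APOE33 (median 16.6, n = 6). The groups overlapped, with 2 KO libraries below all of APOE33. The log2 fold change was -0.42 ± 0.12 (adjusted p = 0.0251), and it passed in 6 of 10 fits that left out 1 library.

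Microglia markers leaned higher in KO astrocytes without a clear separation. All 15 had positive log2 fold changes (median 0.719), and 1 passed where 17.2% of all genes did. Their sum overlapped, at 272 to 543 CPM in KO and 182 to 586 CPM in APOE33. Inpp5d and Cd33, which follow those markers within each genotype, had log2 fold changes of 1.00 ± 0.50 (adjusted p = 0.186) and 0.99 ± 0.46 (adjusted p = 0.156). Cd33 was at 2.92 to 7.55 CPM in KO and 1.24 to 6.27 CPM in APOE33, with overlap. Ptk2b, at a mean of 59.3 CPM in KO and 29.8 CPM in APOE33, compares with 4.82 CPM in KO and 3.72 CPM in APOE33 at the marker share. Of 12 astrocyte markers 1 was higher and 2 were lower in KO, and 1 of 6 border macrophage markers was higher. Lower in KO were 4 of 12 oligodendrocyte lineage markers and 2 of 5 mural and meningeal fibroblast markers. The mural and fibroblast sum was 133 to 298 CPM in KO, lowest in replicate 1, and 272 to 357 CPM in APOE33. The part of these cells in the astrocyte values was not tested.

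Of the other tests of the difference between cell types, Bin1 gave -0.46 ± 0.11 (adjusted p = 0.00482) and Cd33 -1.55 ± 0.48 (adjusted p = 0.0299), so 3 of 10 genes passed where 12.7% of 21647 genes did. Bin1 passed without any 1 library. Astrocyte levels of Cd33 were low and followed the microglia markers within each genotype. Its call was lost in 5 of 20 fits that left out 1 library and without a filter on low counts (adjusted p = 0.0668).

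**Figure D4:**
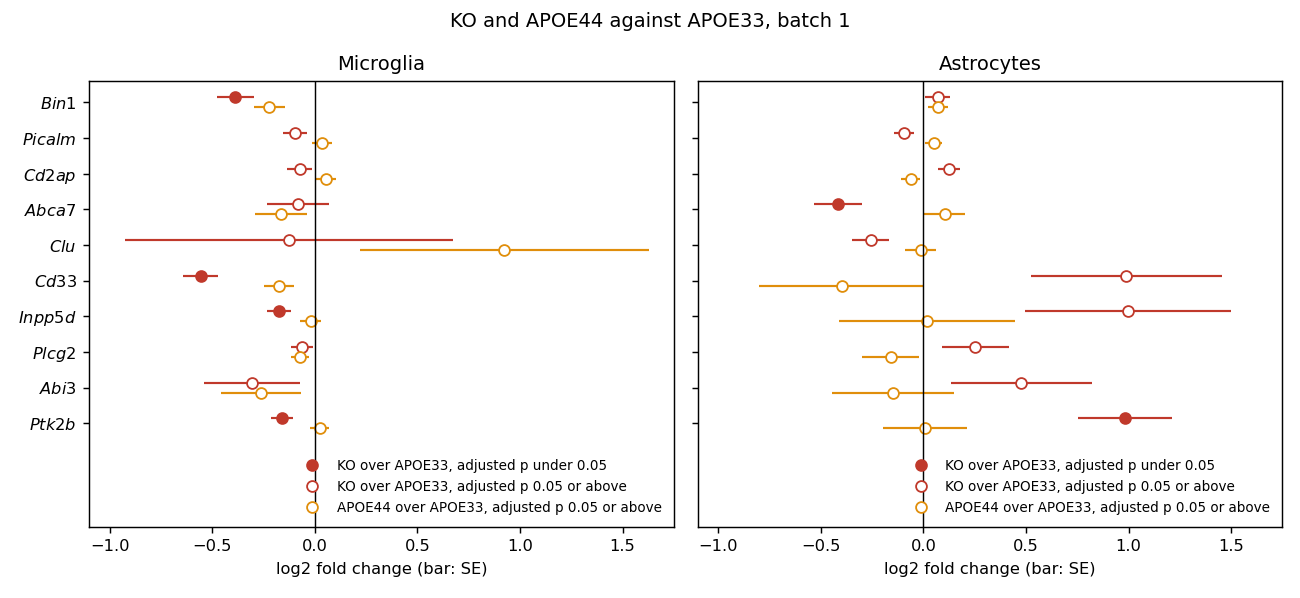
Log2 fold change (x axis, bar: SE) of KO and of APOE44 over APOE33 in microglia (left) and astrocytes (right), with filled points for adjusted p under 0.05. Cd33 and Bin1 are lower in KO microglia, Ptk2b is higher in KO astrocytes and slightly lower in KO microglia, and no APOE44 point is filled.

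KO was also set against APOE44, a comparison that shares its KO libraries with the one above. In microglia 2 of 10 genes passed, Cd33 and Ptk2b, both lower in KO, where 26.9% of genes passed. Cd33 was at 236 to 255 CPM in KO and at 271 to 375 CPM in APOE44 (median 307), without overlap, and its log2 fold change was -0.38 ± 0.08 (adjusted p = 0.00285). Ptk2b was lower, at -0.18 ± 0.05 (adjusted p = 0.0165), with 3 of 4 KO libraries below the lowest APOE44 library at 381 CPM, and the call was lost without KO replicate 2 or KO replicate 3 (adjusted p up to 0.0636). As a percentage of the microglia marker sum the Cd33 ranges met, at 0.717% to 0.841% in KO and 0.831% to 1.07% in APOE44. Of the microglia markers 2 of 15 were higher and 3 lower in KO, 4 of 5 border macrophage markers were higher (median log2 fold change 0.928) and 6 of 13 oligodendrocyte lineage markers were lower, and their part in these values was not tested.

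In astrocytes 6 of 10 genes passed between KO and APOE44, where 22.7% of genes passed. Ptk2b (0.97 ± 0.22, adjusted p = 0.00764), Cd33 (1.39 ± 0.44, adjusted p = 0.0365) and Cd2ap (0.19 ± 0.05, adjusted p = 0.0178) were higher in KO. Abca7 (-0.52 ± 0.12, adjusted p = 0.00499), Clu (-0.25 ± 0.09, adjusted p = 0.0484) and Picalm (-0.14 ± 0.05, adjusted p = 0.0364) were lower. Ptk2b and Abca7 ranges did not overlap, at 45.9 to 73.2 CPM in KO and 22.9 to 38.9 CPM in APOE44 for Ptk2b, and at 12.4 to 15.8 CPM in KO and 16.1 to 21.9 CPM in APOE44 for Abca7. Without KO replicate 1, 2 of the 10 genes passed and Ptk2b had an adjusted p of 0.0568, whereas Abca7 passed without any 1 library. Clu passed in 2 of 10 such fits, Cd33 in 4 and Picalm in 5. All 15 microglia markers had positive log2 fold changes here too (median 0.727, 2 passed), and their sum was 272 to 543 CPM in KO and 151 to 538 CPM in APOE44. Of 12 astrocyte markers 1 was higher and 5 were lower in KO (median log2 fold change -0.172), and 4 of 12 oligodendrocyte lineage markers were lower (median -0.608). The part of these cells in the 6 values was not tested.

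APOE44 and APOE33 differ in the human APOE allele they carry. None of the 10 genes passed in microglia, where 0.840% of genes passed edgeR's test, and none in astrocytes, where 0.703% did. DESeq2 also called none in either cell type. At an unadjusted p under 0.05 edgeR gave 2 genes in microglia, Bin1 and Cd33, and 0 in astrocytes.

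Bin1 was at 360 to 468 CPM in APOE44 microglia (median 374) and at 386 to 562 CPM in APOE33 (median 432), with 4 of 6 APOE44 libraries below all of APOE33. Its log2 fold change was -0.22 (95% interval -0.38 to -0.06, adjusted p = 0.234). Cd33 was at 271 to 375 CPM in APOE44 and 316 to 383 CPM in APOE33, with a log2 fold change of -0.17 (95% interval -0.33 to -0.02, adjusted p = 0.351). The ranges overlapped for both.

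The intervals say how large a difference these libraries leave possible. In microglia they were narrow for Plcg2 (-0.17 to 0.02), Inpp5d (-0.13 to 0.09), Ptk2b (-0.07 to 0.12), Picalm (-0.07 to 0.14) and Cd2ap (-0.05 to 0.16) on the log2 scale, and wide for Clu (-0.59 to 2.44). In astrocytes they ran from -0.04 to 0.14 for Picalm to -0.91 to 0.94 for Inpp5d, and Clu itself lay at -0.01 (-0.17 to 0.15). The difference of this contrast between cell types passed for no gene of the 10 in edgeR or DESeq2, where 0.296% of genes passed, and 1 gene, Bin1, had an unadjusted p under 0.05 (-0.29 ± 0.09, adjusted p = 0.184). Without APOE33 microglia replicate 2, the library with high Clu, Clu passed that test.

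The comparisons with WT carry the batch label as well as genotype. Values after "higher by" are log2 fold changes ± SE. In microglia Bin1, Abca7, Cd33, Inpp5d, Plcg2 and Abi3 were higher than in WT in each of the other 3 genotypes. KO had 7 of 10 genes called, those 6 higher and Ptk2b lower, where 42.4% of 18079 genes passed. APOE44 had 7 called, those 6 and Picalm, all higher, where 45.4% passed, and APOE33 had those 6, where 44.8% passed. The 3 comparisons share the WT libraries.

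Cd33 was at 236 to 255 CPM in KO, 271 to 375 CPM in APOE44 and 316 to 383 CPM in APOE33 microglia, against 158 to 198 CPM in WT (median 172). No library of the 3 genotypes overlapped WT. The log2 fold changes were 0.48 ± 0.08 in KO (adjusted p = 3.32e-05), 0.87 ± 0.07 in APOE44 (adjusted p = 4.77e-09) and 1.05 ± 0.07 in APOE33 (adjusted p = 4.47e-10).

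Abi3 was at 20.8, 38.1, 27.9 and 26.2 CPM in KO microglia, at 22.5 to 40.2 CPM in APOE44 and at 24.6 to 44.8 CPM in APOE33, against 12 to 13.9 CPM in WT. Its log2 fold changes were 1.099 ± 0.19 in KO (adjusted p = 0.000129), 1.13 ± 0.17 in APOE44 (adjusted p = 2.61e-05) and 1.39 ± 0.17 in APOE33 (adjusted p = 2.90e-06). Zfp652, which shares 2913 of the 4153 exon bases of Abi3, was higher than in WT by 0.55 ± 0.07 in KO, 0.45 ± 0.06 in APOE44 and 0.49 ± 0.06 in APOE33. Gngt2, which shares 234 bases, had values of 0.48 ± 0.10, 0.20 ± 0.09 and 0.36 ± 0.09, of which that in APOE44 did not pass (adjusted p = 0.0767).

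Bin1 was higher than in WT microglia by 0.37 ± 0.09 in KO (adjusted p = 0.00203), 0.55 ± 0.08 in APOE44 (adjusted p = 1.26e-05) and 0.77 ± 0.08 in APOE33 (adjusted p = 1.81e-07), with WT at 235 to 339 CPM. Abca7 was higher by 0.44 ± 0.12 in KO, 0.36 ± 0.11 in APOE44 and 0.52 ± 0.11 in APOE33, and its WT libraries at 77.3 to 82.7 CPM lay below all 16 others. Plcg2 was higher by 0.23 ± 0.04, 0.22 ± 0.04 and 0.29 ± 0.04 in KO, APOE44 and APOE33, with WT at 255 to 271 CPM below all others. Inpp5d was higher by 0.18 ± 0.06, 0.35 ± 0.05 and 0.37 ± 0.05 in the same order, and the call in KO was lost without KO replicate 1 or WT replicate 5 (adjusted p up to 0.0543).

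Ptk2b in KO microglia, at 338 to 385 CPM, lay below all WT libraries at 392.4 to 445.3 CPM (-0.22 ± 0.05, adjusted p = 0.00139). In APOE44 (-0.03 ± 0.04) and APOE33 (-0.06 ± 0.04) it did not pass. Picalm passed in APOE44, higher by 0.12 ± 0.04 (adjusted p = 0.0281), beside 0.09 ± 0.04 in APOE33 and -0.02 ± 0.05 in KO, and that call was lost without APOE44 replicate 5 or WT replicate 1 (adjusted p up to 0.0659). Cd2ap and Clu did not pass in microglia of any of the 3 genotypes.

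Microglia markers moved with these values. They were higher than in WT for 12 of 15 genes in KO, 13 in APOE44 and 13 in APOE33, with median log2 fold changes of 0.50, 0.54 and 0.62. Their sum was 30360 to 32920 CPM in KO, 30540 to 36180 CPM in APOE44 and 32270 to 37320 CPM in APOE33, against 21550 to 27190 CPM in WT. As a percentage of that sum, Cd33 was 0.783% ± 0.0586 in KO (n = 4), 0.962% ± 0.0955 in APOE44, 1.04% ± 0.108 in APOE33 and 0.737% ± 0.0467 in WT (n = 6 each). Inpp5d averaged 2.45%, 2.58%, 2.5% and 2.84% in the same order, and Bin1 1.14%, 1.18%, 1.3% and 1.13%. Abca7 averaged 0.352%, 0.311%, 0.332% and 0.342%, Plcg2 1.0%, 0.939%, 0.942% and 1.13%, and Abi3 0.0905%, 0.0852%, 0.097% and 0.0549%. Of 6 mural and meningeal fibroblast markers, 4 were lower than in WT in KO, 5 in APOE44 and 5 in APOE33. Of 13 oligodendrocyte lineage markers, 3 were higher and 2 lower in KO, and 10 higher and 0 lower in APOE44. In APOE33 6 were higher and 1 lower. The part of microglial content or state, or of other cells, in the differences from WT was not tested.

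**Figure D5:**
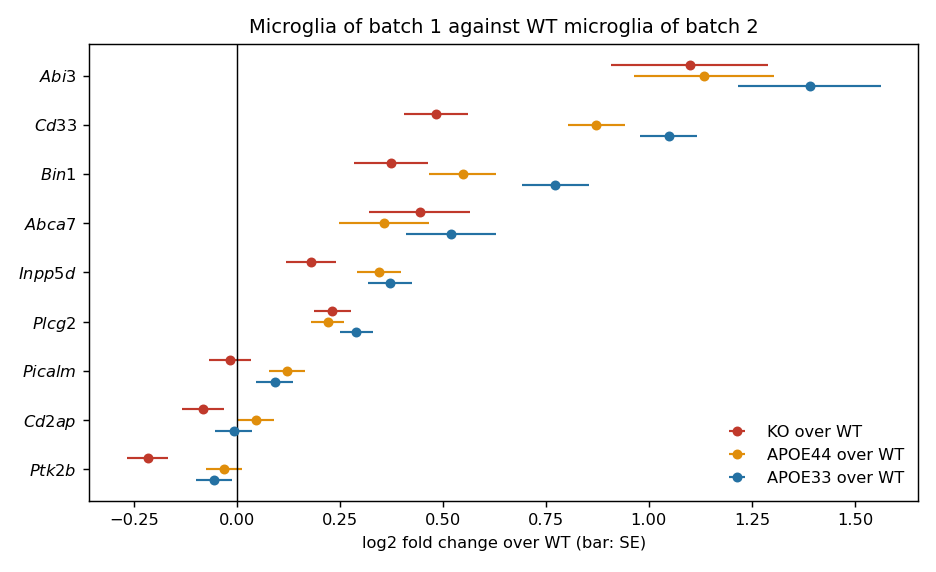
Log2 fold change over WT (x axis, bar: SE) in microglia of KO, APOE44 and APOE33 for 9 genes, Clu being left out for its wide errors. Abi3 and Cd33 lie farthest to the right, Cd2ap lies near 0, and Ptk2b lies left of 0 in KO at -0.22.

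In astrocytes, of the 10 genes, Bin1 and Abca7 were higher than in WT in each of the other 3 genotypes. KO had 5 of 10 genes called (Bin1, Abca7, Plcg2 and Ptk2b higher, Picalm lower), where 38.3% of 21287 genes passed. APOE44 had 4 (Bin1, Clu and Abca7 higher, Cd33 lower), where 41.7% passed, and APOE33 had 3 (Bin1, Clu and Abca7 higher), where 39.0% passed. Bin1 was higher by 0.20 in KO (adjusted p = 0.00491), 0.20 in APOE44 (adjusted p = 0.00175) and 0.13 in APOE33 (adjusted p = 0.0321), and the call in APOE33 was lost in 5 of 12 fits that left out 1 library. Of 12 oligodendrocyte lineage markers tested, 4 were higher and 1 lower in KO (median log2 fold change 0.310). There were 9 higher and 0 lower in APOE44 (median 0.939), and 10 higher and 1 lower in APOE33 (median 0.698). Border macrophage markers were lower for 5 of 7 genes in KO, 6 in APOE44 and 7 in APOE33. Of 12 astrocyte markers 2 were higher and 6 lower in KO, 3 higher and 3 lower in APOE44, and 3 higher and 4 lower in APOE33. The part of other cells in the differences from WT was not tested. Of the other calls, Plcg2 in KO was lost in 4 of 10 fits that left out 1 library and Cd33 in APOE44 in 4 of 12, as well as without a filter on low counts (adjusted p = 0.0618). Cd33 was at 0.967 to 3.67 CPM in APOE44 and 2.05 to 6.26 CPM in WT astrocytes (-1.09 ± 0.38, adjusted p = 0.0287), beside 6 of 7 border macrophage markers and 1 of 15 microglia markers that were lower in APOE44.

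Abca7 was at 12.4 to 15.8 CPM in KO astrocytes, 16.1 to 21.9 CPM in APOE44 and 13.95 to 21.3 CPM in APOE33, against 8.89 to 10.1 CPM in WT. Every library of the 3 genotypes lay above every WT library. The log2 fold changes were 0.45 ± 0.10 in KO (adjusted p = 0.00123), 0.95 ± 0.09 in APOE44 (adjusted p = 4.71e-08) and 0.85 ± 0.09 in APOE33 (adjusted p = 2.87e-07).

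Clu, the most abundant of the 10 in astrocytes, was at 2730 to 3173 CPM in KO, 3050 to 3755 CPM in APOE44 and 2972 to 3826 CPM in APOE33, against 2624 to 2707 CPM in WT. It was higher by 0.32 ± 0.06 in APOE44 (adjusted p = 0.000426) and 0.33 ± 0.06 in APOE33 (adjusted p = 0.000339), and by 0.08 ± 0.07 in KO, which did not pass although no KO library overlapped WT. Ptk2b in KO was 0.77 ± 0.19 above WT (adjusted p = 0.00426), with WT at 31.0 to 35.6 CPM. In APOE44 and APOE33 Ptk2b was at -0.21 ± 0.18 each, and neither passed.

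Sex, which the labels give for each library, was tested within batch 1. None of the 10 genes passed between male and female microglia, where edgeR called 0.0583% of genes, or between male and female astrocytes, where it called 0.0732%, and DESeq2 called none in either. At an unadjusted p under 0.05 edgeR gave 1 gene in microglia, Bin1 (0.17 ± 0.07, adjusted p = 1.00), and 0 in astrocytes.

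Genes that work with these 10 were followed in 6 lists. Values are log2 fold changes ± SE from the same edgeR fits. Beside the counts stand the shares of all genes that passed between KO and APOE33, 22.7% in microglia and 17.2% in astrocytes. The clathrin list (8 of 30 genes), the list of Trem2 and Syk partners (8 of 37) and that of further risk genes (8 of 30) were near that share in microglia. For the endocytic genes, 5 of 30 tested clathrin partners were higher and 3 lower in KO than in APOE33 microglia. The adaptor subunit Ap2a2 (0.35 ± 0.05, adjusted p = 9.46e-05) and the BAR-domain protein gene Snx9 (0.29 ± 0.04, adjusted p = 0.000244) were higher, and the BAR-domain relative of Bin1, Bin2 (-0.53 ± 0.09, adjusted p = 0.000580), was lower. Bin2 averaged 255 ± 7.36 CPM in KO microglia (SD, n = 4) and 351 ± 43.4 CPM in APOE33 (n = 6). In KO astrocytes 4 of 32 were higher and 6 lower, among them the adaptor subunits Ap2s1 (-0.41 ± 0.07, adjusted p = 0.00119) and Ap2m1 (-0.20 ± 0.04, adjusted p = 0.00427) and the early-endosome GTPase gene Rab5c (-0.23 ± 0.05, adjusted p = 0.00403), all 3 lower.

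For the sialic-acid receptors that Cd33 belongs to, 7 of 8 were tested in microglia, and 2 were higher and 2 lower in KO than in APOE33. Siglec1, the sialoadhesin of macrophages, was higher by 1.103 ± 0.16 (adjusted p = 0.000208), at 666 ± 28 CPM in KO (n = 4) and 304 ± 72.0 CPM in APOE33 (n = 6). Cd22 was higher by 0.83 ± 0.14 (adjusted p = 0.000578), and Siglece was lower, as Cd33 was, at -0.75 ± 0.21 (adjusted p = 0.0171). The receptors of this family thus moved in both directions in KO microglia.

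For the signalling around Inpp5d and Plcg2, 2 of 37 partners of Trem2 and Syk were higher and 6 lower in KO than in APOE33 microglia. Fcgr2b, the inhibitory Fc receptor that recruits SHIP1, was higher by 0.83 ± 0.07 (adjusted p = 2.30e-06), at 1730 ± 76.8 CPM in KO and 964 ± 82.1 CPM in APOE33. The adaptor gene Shc1 (-0.44 ± 0.04, adjusted p = 3.45e-06) and the exchange factor gene Vav1 (-0.21 ± 0.04, adjusted p = 0.000617) were lower. In KO astrocytes 11 of 36 were higher (median log2 fold change 0.578), beside the 15 microglia markers at a median of 0.719.

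For the actin partners of Abi3, Cd2ap and Ptk2b, 2 of 30 were higher and 2 lower in KO than in APOE33 microglia, among them the kinase gene Src (-0.64 ± 0.09, adjusted p = 0.000200) and the WAVE subunit gene Wasf2 (-0.30 ± 0.05, adjusted p = 0.00104), both lower, and the GTPase gene Rac3, higher by 1.06 ± 0.21 (adjusted p = 0.00240). For the lipid genes, 5 of 19 lipoprotein receptors and lipid transporters were higher and 2 lower, among them the lipid transporter genes of the ABCA subfamily Abca8b, higher by 1.79 ± 0.27 (adjusted p = 0.000259), and Abca9, lower at -0.80 ± 0.16 (adjusted p = 0.00266). Of 30 further risk genes, 3 were higher and 5 lower in KO microglia, with the gamma-secretase subunit gene Aph1b higher by 0.53 ± 0.09 (adjusted p = 0.000672), Spi1, which encodes PU.1, lower at -0.22 ± 0.04 (adjusted p = 0.00196), and Ms4a4a higher by 1.25 ± 0.24 (adjusted p = 0.00202).

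Between APOE44 and APOE33 microglia no gene of these lists passed, where 0.840% of all genes did. In astrocytes 2 genes passed, 1 of 20 lipoprotein receptors and lipid transporters and 1 of 30 actin partners, where 0.703% of all genes did. Vldlr, the VLDL receptor, was higher in APOE44 by 0.58 ± 0.09 (adjusted p = 0.00443) and the actin-capping subunit gene Capza2 lower at -0.25 ± 0.05 (adjusted p = 0.0453). Against WT microglia, Sorl1, a sorting receptor and itself at a risk locus, was higher by 1.51 ± 0.12 in KO, 1.204 ± 0.11 in APOE44 and 1.199 ± 0.11 in APOE33. The sheddase gene Adam10 was higher by 0.54 ± 0.06, 0.74 ± 0.05 and 0.82 ± 0.05 in the same order. Both share the WT libraries with the values above.

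The genes with the most similar level profile over the 8 groups were sought among 11644 named genes with a mean of at least 1 CPM and a count in every library, as the smallest root mean square difference of centred log2 CPM. They were Itgb5 and Sh2b3 for Bin1 (0.0529 and 0.0900), Zswim6 and Epb41l2 for Picalm (0.0565 and 0.0712), Ptp4a2 and Scyl3 for Cd2ap (0.0408 and 0.0419), and Rab11fip5 and Pitpnm1 for Abca7 (0.152 and 0.153). For Clu they were Sox6 and Fbxo2 (0.105 and 0.111), for Cd33 Fgd2 and Ncf1 (0.153 and 0.208), for Inpp5d Fli1 and Aim2 (0.0761 and 0.0812), and for Plcg2 Lyl1 and Pmepa1 (0.137 and 0.139). Those of Abi3 were Plxna4os1 and Fut7 (0.162 and 0.199), and those of Ptk2b were Dse and Abracl (0.120 and 0.129).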

How the data were processed

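Bulk RNA-seq was made from 44 libraries, with RNeasy extraction and a NEBNext Ultra kit, per the labels' protocols. The authors deposited raw read counts per Ensembl gene. Per the submitters' processing notes, STAR 2.5.3a, featureCounts, edgeR 3.26.8 and DESeq2 3.14 were used, and the only build named there is hg38, while the gene identifiers are those of mouse. Of 54146 identifiers, 54079 matched GENCODE M21, from which names and GRCm38 positions were taken. Even counts made up 62.4% to 78.7% of the counts from 1 to 9, so low counts often come in pairs, and counting error is larger than single reads would give. RNA integrity numbers were 8.9 to 10.0.

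From the counts, CPM was computed on TMM-scaled library sizes. Genes kept by edgeR's expression filter were tested with edgeR 4.0.16 (R 4.3.3) by the quasi-likelihood test, with sex as a covariate and Benjamini-Hochberg adjustment over all genes tested, and tested on simulated data first. APOE44, APOE33 and KO were fitted together per cell type without WT, comparisons with WT used all 22 libraries of a cell type, and cell types were compared within batch 1 (32 libraries) or within WT (12). Intervals are 95%. DESeq2 1.42.0, other scalings, filters, covariates and left-out libraries were alternatives. Partner genes named are up to 3 per list with the smallest adjusted p, and 1 gene chosen by this rule is not reported here. The 10 genes and all lists were chosen with earlier results of these data known. Replicate numbers were not taken to pair libraries: same-numbered libraries of both cell types deviated together (correlation over 0.1) in 4 of 22 pairs.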

Additional observations from a re-analysis of the deposited data

Results flagged for a closer look

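In 3 of 80 sets of values (each gene in each group), 1 library lay far from the others of its group. Chance gives about 1 in 20 sets, so 3 are no more than chance gives. Bin1 was 468 CPM in APOE44 microglia replicate 5, and 360 to 388 CPM in the other 5 libraries. Abca7 was 129 CPM in the same library, and 89.3 to 104 CPM in the others. Clu was 49.8 CPM in APOE33 microglia replicate 2, and 4.84 to 7.45 CPM in the others. The astrocyte marker sum was 138 CPM in that replicate and 36.1 to 55.4 CPM in the others.

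The effect of KO against APOE33 differed between microglia and astrocytes, by edgeR's test of that difference, for Bin1 (-0.462 on the log2 scale), Cd33 (-1.55) and Ptk2b (-1.15).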

How the results depend on the processing

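For the 10 genes, none of the 69 called results changed sign under any of the 1359 alternative values, while 30 of the 111 that were not called did so at least once (124 of 2077 values), among them Clu between KO and APOE33 microglia (-0.13, and 0.74 without APOE33 replicate 2). With a replicate block, genes called between APOE44 and APOE33 numbered 70 in astrocytes and 51 in microglia (144 each without), those between KO and APOE33 astrocytes 1892 (3522 without), and those of the APOE44 difference between cell types 38 (64 without). Of the 10 genes, the block left 1 called in KO against APOE33 astrocytes (2 without), 2 in microglia (4), 3 in KO against APOE44 astrocytes (6) and 1 in microglia (2). The calls it ended were Abca7 (adjusted p = 0.0727) between KO and APOE33 astrocytes, Inpp5d (0.153) and Ptk2b (0.141) between KO and APOE33 microglia, Picalm (0.105), Clu (0.117), Cd33 (0.112) and Cd2ap (0.0668) between KO and APOE44 astrocytes, and Ptk2b (0.0658) between KO and APOE44 microglia, while Plcg2 passed between KO and APOE44 astrocytes. Of 22 astrocyte libraries, 4 correlated best with the microglia library of their own number. DESeq2 called 323 genes (astrocytes) and 408 (microglia) between APOE44 and APOE33, 358 for their difference and 20 between male and female microglia (10 by edgeR). With all 22 libraries in the fit, APOE44 against APOE33 gave 229 and 224 genes, and KO against APOE44 microglia gave 4 of the 10. Without a filter on low counts, KO against APOE33 microglia gave 2 of the 10, and Picalm (adjusted p = 0.0635) and Cd33 (0.0877) did not pass between KO and APOE44 astrocytes. The cause was not tested.

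Leaving out each library in turn gave 85 to 126 genes between APOE44 and APOE33 astrocytes, 81 to 191 in microglia, 1836 to 3688 between KO and APOE33 astrocytes (lowest without KO replicate 1) and 40 to 403 for the APOE44 difference (highest without APOE33 microglia replicate 2). Of the 10 genes it left 1 to 4 called in KO against APOE33 astrocytes, 2 to 3 in microglia, 2 to 6 in KO against APOE44 astrocytes, 1 to 5 in microglia and 0 to 1 for the APOE44 difference.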
